A study of Homo sapiens with 12 samples.

Results

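The genes described here encode 10 human selenoproteins: SELENOH, SELENOW, SELENOP, SELENOS, SELENOK, SELENOT, GPX1, GPX2, GPX4 and TXNRD2. They were followed in Caco-2 cells, an established human colonic adenocarcinoma line that forms an intestinal epithelium-like layer. Cells transfected with an siRNA to MTF1, a transcription factor that senses zinc, or with a control siRNA, were kept at 3 µM zinc (low) or 150 µM zinc (high). Each of the 4 combinations was measured on 3 Illumina HumanHT-12 V4 bead arrays, 12 arrays in all, each carrying total RNA of 1 sample. All groups were grown in the same serum-containing medium and were transfected with lipofectamine RNAiMAX. Both siRNAs were ON-TARGETplus reagents, and MTF1 was knocked down, not deleted. The labels do not state how long zinc and siRNA acted. The series design text names ZNF658 as the gene knocked down, whereas its title and all sample labels name MTF1, and the sample labels were followed. The labels number the replicates without saying that they were separate cultures, so p-values measure only the spread between these samples.

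Members were taken by symbol or older alias, and 18 of the 47323 probes on the array carried 1 of the 10 symbols. A probe entered if its detection p-value, which sets its signal against negative control beads, was below 0.05 on all 3 arrays of at least 1 group. By this rule 12 of the 18 probes entered, and they covered 9 of the 10 genes. SELENOS had 3 entering probes, GPX4 had 2, and the other 7 genes had 1 each. The 6 probes left out were the only probe of SELENOH and the second probes of SELENOP, SELENOK, SELENOT, GPX1 and TXNRD2. Every member that entered had a main probe detected on all 12 arrays with a detection p-value listed as 0. The nearest miss was the second SELENOT probe, detected on 1 array, and no other excluded probe was detected on any array.

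Selenoproteins carry selenocysteine, the selenium analogue of cysteine, which is inserted at a UGA codon that an RNA element in the transcript and its binding protein recode from a stop. In the intestinal epithelium they include the glutathione peroxidases, which reduce hydroperoxides with glutathione, and the thioredoxin reductases, which keep thioredoxin reduced. Others sit in the endoplasmic reticulum membrane, and SELENOP is secreted and carries selenium to other tissues. MTF1 binds metal response elements when cellular zinc rises and induces metallothioneins and the zinc exporter SLC30A1. SELENOH and SELENOW have been reported as MTF1 targets.

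The start regions of 5 members are shown because these genes either are the reported MTF1 targets or passed a zinc test below. Sequences are from RefSeq on GRCh38.p14, and all 10 genes matched. Each runs 5′ to 3′ on the gene's strand from 250 bases before the annotated start to 50 bases after it. Capitals mark the 7-base core of the metal response element, searched as TGCACNC or TGCGCNC on both strands. SELENOH lies at chr11:57741241-57741540 on the plus strand and SELENOW at chr19:47778453-47778752 on the plus strand. SELENOP lies at chr5:42811843-42812142, SELENOS at chr15:101277436-101277735 and SELENOK at chr3:53891810-53892109, all on the minus strand.
SELENOH: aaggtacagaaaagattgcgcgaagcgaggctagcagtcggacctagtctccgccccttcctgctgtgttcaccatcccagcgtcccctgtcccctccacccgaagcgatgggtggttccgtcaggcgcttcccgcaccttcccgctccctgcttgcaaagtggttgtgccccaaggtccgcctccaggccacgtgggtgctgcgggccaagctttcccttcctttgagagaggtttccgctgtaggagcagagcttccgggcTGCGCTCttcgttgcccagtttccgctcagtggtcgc
SELENOW: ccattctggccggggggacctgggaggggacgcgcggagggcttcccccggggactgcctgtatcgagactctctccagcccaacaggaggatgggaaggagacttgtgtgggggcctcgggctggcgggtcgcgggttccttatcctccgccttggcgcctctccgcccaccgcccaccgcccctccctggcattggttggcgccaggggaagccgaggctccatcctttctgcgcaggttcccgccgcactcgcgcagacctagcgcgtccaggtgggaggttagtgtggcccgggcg
SELENOP: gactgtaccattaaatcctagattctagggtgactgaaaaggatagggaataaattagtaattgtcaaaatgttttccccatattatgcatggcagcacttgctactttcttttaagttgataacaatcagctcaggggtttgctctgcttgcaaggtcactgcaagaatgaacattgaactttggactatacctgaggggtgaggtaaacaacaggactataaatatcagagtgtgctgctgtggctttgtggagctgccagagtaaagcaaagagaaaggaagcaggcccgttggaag
SELENOS: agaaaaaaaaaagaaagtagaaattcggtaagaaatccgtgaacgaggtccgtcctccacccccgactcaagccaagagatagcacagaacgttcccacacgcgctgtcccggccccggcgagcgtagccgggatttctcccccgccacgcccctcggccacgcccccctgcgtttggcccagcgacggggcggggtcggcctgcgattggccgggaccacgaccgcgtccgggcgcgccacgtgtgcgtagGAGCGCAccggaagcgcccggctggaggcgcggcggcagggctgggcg
SELENOK: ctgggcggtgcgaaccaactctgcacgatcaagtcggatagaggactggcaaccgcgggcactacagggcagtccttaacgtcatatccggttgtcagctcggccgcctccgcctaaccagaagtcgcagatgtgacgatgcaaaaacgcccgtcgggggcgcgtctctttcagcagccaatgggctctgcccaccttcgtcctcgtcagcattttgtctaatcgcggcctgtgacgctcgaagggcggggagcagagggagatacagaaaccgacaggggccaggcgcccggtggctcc
Counting the base after the 250 upstream bases as +1, the SELENOH core spanned positions 14 to 20 on the gene's strand. The SELENOS core spanned positions 3 to 9 on the opposite strand. The windows of SELENOW, SELENOP, SELENOK and GPX2 held no such core. Across all 10 genes, which have 14 annotated starts, 6 starts held the core: 1 each of SELENOH, SELENOS, SELENOT and GPX1, 1 of 3 for GPX4 and 1 of 3 for TXNRD2. The core occurred in 29.6% of all 35116 RefSeq windows of the same length, so its presence is a description of the letters and not a binding site. MT2A, a metallothionein, held 8 cores and SLC30A1 held 2. The core of the antioxidant response element, which NRF2 binds, was searched as TGACNNNGC on both strands. It was found at SELENOP (positions -99 to -91), SELENOK (-117 to -109) and GPX2 (-122 to -114), against 13.3% of all windows. No match overlapped a metal response element core in these 3 windows, since they held none of the latter.

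The arrays showed the zinc treatment and a lower MTF1 signal with MTF1 siRNA. Levels are given as background-corrected, quantile-normalized log2 intensities, on which a difference of 1 is a doubling. MT2A was higher at high zinc by 4.36 ± 0.26 (SE) with control siRNA and by 4.90 ± 0.26 with MTF1 siRNA, and SLC30A1 by 2.64 ± 0.10 and 2.15 ± 0.10. MTF1 itself measured 6.56, 6.49 and 6.77 at low zinc and 6.55, 6.75 and 6.80 at high zinc with control siRNA. With MTF1 siRNA it measured 6.28, 5.69 and 5.72 at low zinc and 5.61, 6.25 and 5.31 at high zinc, below every control array at both zinc levels. In limma with Benjamini-Hochberg adjustment over 14285 features the MTF1 difference was -0.71 ± 0.22 (adjusted p = 0.201) at low zinc, -0.98 ± 0.22 (adjusted p = 0.0483) at high zinc and -0.85 ± 0.16 (adjusted p = 0.0187) averaged over both. The call at high zinc was lost when any of 10 of the 12 arrays was left out, with adjusted p up to 0.141, and the averaged call was lost without the first high zinc MTF1 siRNA array (adjusted p = 0.0507). The MTF1 probe was dim, with raw intensities between 147 and 211, so the extent of the knockdown is uncertain. With MTF1 siRNA at high zinc SLC30A1 differed by -0.57 ± 0.10 (limma adjusted p = 0.0188) and MT2A by -0.25 ± 0.26 (adjusted p = 0.624). At low zinc neither passed (adjusted p = 0.736 and 0.228). Of 8 colonic epithelial markers 7 were detected on all 12 arrays, and KRT20 reached at most 5 arrays. CD3E and VWF were detected on no array, PTPRC, PECAM1, PDGFRB and DCN on at most 2, and COL1A1, COL1A2, CD14 and CDH5 on all 12. Between 18191 and 19469 probes were detected per array. In bulk RNA, a change in the level per cell and a change in the share of cells that express a gene cannot be told apart.

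SELENOH could not be followed. This small redox protein of the nucleus was represented by 1 probe, which was detected on 0 of 12 arrays, with detection p-values between 0.0575 and 0.606. Its raw intensities lay between 115 and 140, on arrays whose median over all probes lay between 121.6 and 134.8. No level, difference or neighbour in expression is therefore given for SELENOH, and its mRNA may lie below what this probe could measure.

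SELENOW, a small thioredoxin-like protein and the other reported MTF1 target, did not pass the test in any comparison. With control siRNA it measured 9.15, 8.90 and 9.14 at low zinc and 8.97, 9.03 and 8.63 at high zinc. Under MTF1 siRNA the values were 8.93, 8.96 and 9.18 at low zinc and 9.26, 9.24 and 9.16 at high zinc. The high zinc MTF1 siRNA arrays all lay above both control siRNA groups and overlapped with the low zinc MTF1 siRNA arrays. The MTF1 siRNA difference was -0.04 ± 0.12 (95% interval -0.31 to 0.23) at low zinc and 0.34 ± 0.12 (0.07 to 0.61, limma adjusted p = 0.149) at high zinc. The third high zinc control array was the lowest of the 12, and without it the latter difference was 0.22 (adjusted p = 0.376). The zinc response was -0.19 ± 0.12 with control siRNA and 0.20 ± 0.12 with MTF1 siRNA. Over the 12 arrays and among 10583 other named genes, the normalized profiles most like SELENOW by Pearson correlation were those of EXOSC4 (r = 0.92), TAF10 (r = 0.915) and PAK6 (r = 0.901). These coefficients describe 12 arrays that share their groups and normalization.

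**Figure D1:**
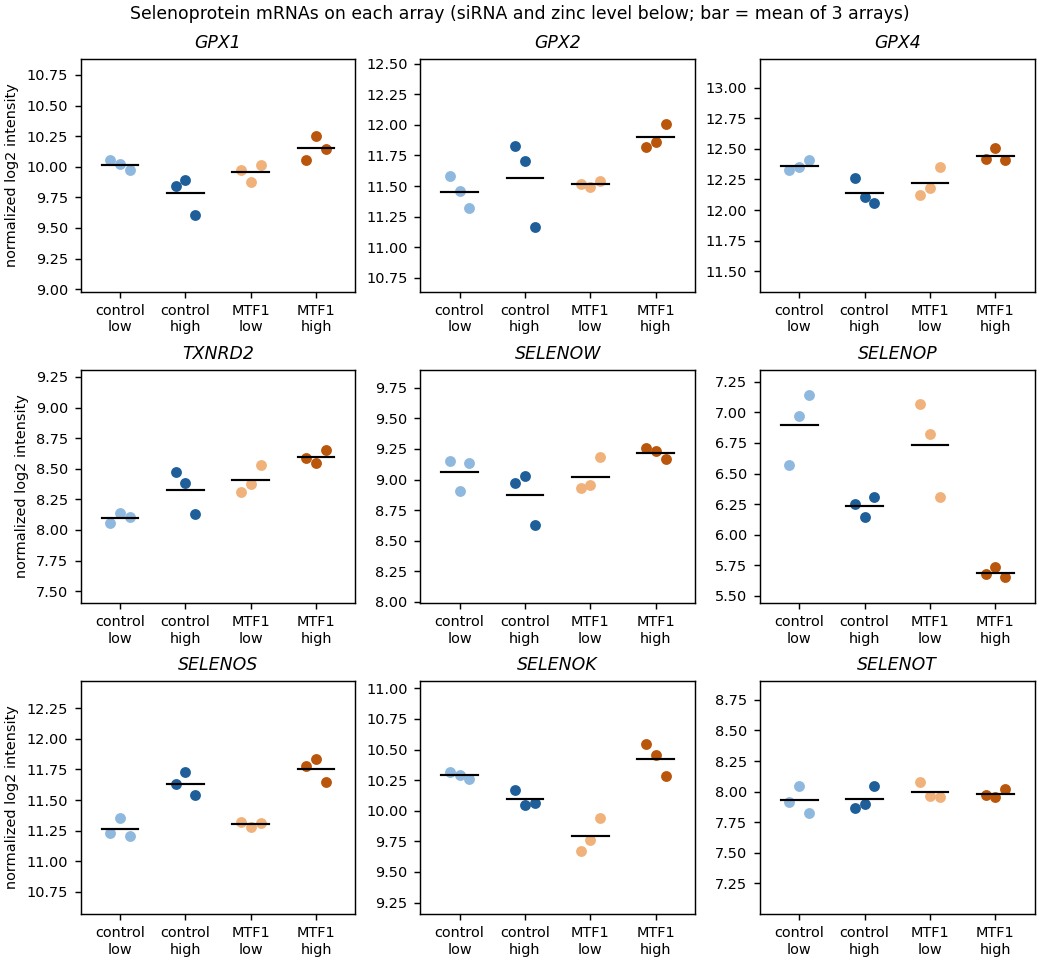
Normalized log2 intensity (vertical axis, each panel spanning the same range of log2 units) of the main probe of 9 selenoprotein genes on each of 12 arrays, by siRNA and zinc level. Points are arrays and bars are means of 3; SELENOP was lower and SELENOS higher at high zinc with either siRNA, while SELENOK at low zinc was lower on the MTF1 siRNA arrays than on the control siRNA arrays.

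Zinc with control siRNA moved 2 of the 9 measured genes past the threshold, SELENOS upward and SELENOP downward. This count of 2 of 9 stands beside 18% of all 14285 features called in the same comparison. The median change of the 9 was -0.19, against -0.01 for all features, and 4 of 9 were above 0, against 49.1% of all features. The groups did not overlap for 5 of the 9: SELENOS was higher (17.4% of all features were) and SELENOP, SELENOK, GPX1 and GPX4 were lower (17.9% of all features were).

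SELENOP, the secreted selenium carrier, showed the largest zinc difference among the 9. With control siRNA it measured 6.57, 6.97 and 7.14 at low zinc and 6.25, 6.14 and 6.31 at high zinc, and the groups did not overlap. The MTF1 siRNA arrays measured 7.07, 6.83 and 6.31 at low zinc and 5.68, 5.73 and 5.65 at high zinc, again without overlap. SELENOP fell with zinc by 0.66 ± 0.18 (1.58-fold, limma adjusted p = 0.0277) with control siRNA and by 1.04 ± 0.18 (2.06-fold, adjusted p = 0.00229) with MTF1 siRNA. Its probe was dim, with raw intensities between 156 and 241, and without background correction the 2 differences were -0.30 and -0.41, still past the threshold. The call with control siRNA was lost without the second (adjusted p = 0.0725) or the third (0.0980) low zinc control array and without the first (0.0581), the second (0.0784) or the third (0.0592) high zinc control array. The call with MTF1 siRNA was kept whichever array was left out. At high zinc SELENOP measured less with MTF1 siRNA than with control siRNA on every array, a difference of -0.55 ± 0.18 that did not pass (adjusted p = 0.127). In rising order its group means were high zinc MTF1 siRNA (5.69), high zinc control (6.23), low zinc MTF1 siRNA (6.73) and low zinc control (6.89). Only the first pair of neighbours in that order did not overlap.

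SELENOS, also called VIMP, links the ATPase VCP to derlins in the endoplasmic reticulum membrane for the export of misfolded proteins. With control siRNA its main probe measured 11.23, 11.35 and 11.20 at low zinc and 11.63, 11.73 and 11.54 at high zinc. With MTF1 siRNA it measured 11.32, 11.28 and 11.31 at low zinc and 11.78, 11.84 and 11.65 at high zinc. Every high zinc array lay above every low zinc array. SELENOS rose with zinc by 0.37 ± 0.09 (1.29-fold, limma adjusted p = 0.0156) with control siRNA and by 0.45 ± 0.09 (1.37-fold, adjusted p = 0.00537) with MTF1 siRNA. A second probe to the same transcript rose by 0.33 ± 0.09 (adjusted p = 0.0256) and 0.64 ± 0.09 (adjusted p = 5.95e-04) in a fit over all 17413 entering probes. At high zinc this second probe also lay higher with MTF1 siRNA on every array, by 0.31 ± 0.09, which did not pass (adjusted p = 0.0917). The remaining, dim probe was annotated to another transcript and differed by 0.44 ± 0.20 and 0.57 ± 0.20, which did not pass (adjusted p = 0.155 and 0.0783), and it was detected on only 9 of 12 arrays. The control siRNA call of the main probe was lost without the first (adjusted p = 0.0551) or the third (0.0558) low zinc control array or the second high zinc control array (0.0518). MTF1 siRNA differed from control by 0.04 ± 0.09 at low zinc and 0.12 ± 0.09 at high zinc, with 95% intervals from -0.16 to 0.24 and from -0.08 to 0.32.

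With MTF1 siRNA, zinc moved 3 of the 9 genes past the threshold, SELENOS and SELENOK upward and SELENOP downward, beside 15.7% of all features. The median of the 9 was 0.20 (all features -0.01), and 7 of 9 were above 0 (47.8% of all features). The zinc groups did not overlap for 7 of the 9: SELENOS, SELENOK, GPX1, GPX2, GPX4 and TXNRD2 were higher (16.1% of all features were) and SELENOP was lower (19.2%).

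SELENOK is an endoplasmic reticulum membrane protein that works with the palmitoyl transferase ZDHHC6. Its zinc differences had opposite signs under the 2 siRNAs, and only that with MTF1 siRNA passed. With control siRNA it measured 10.32, 10.29 and 10.26 at low zinc and 10.17, 10.05 and 10.06 at high zinc, so the high zinc arrays were lower without overlap. Under MTF1 siRNA the values were 9.67, 9.76 and 9.94 at low zinc and 10.54, 10.46 and 10.28 at high zinc, so here the high zinc arrays were higher without overlap. The zinc difference with control siRNA was -0.20 ± 0.10 (limma adjusted p = 0.194). With MTF1 siRNA SELENOK rose with zinc by 0.63 ± 0.10 (1.55-fold, adjusted p = 0.00116), and this call was kept whichever array was left out. At low zinc the MTF1 siRNA arrays lay below the control arrays, a difference of -0.50 ± 0.10 (unadjusted p = 3.44e-04, adjusted p = 0.0898). At high zinc every MTF1 siRNA array lay above every control array, a difference of 0.33 ± 0.10 (adjusted p = 0.102). The interaction term, which subtracts the control siRNA response to zinc from the MTF1 siRNA response, gave 0.83 ± 0.14 (95% interval 0.52 to 1.14, unadjusted p = 8.30e-05). This ranked 10 of 14285 features by p and did not pass the threshold (adjusted p = 0.106). It passed without background correction (adjusted p = 0.00559), on the authors' deposited log2 values (0.00693) and with a mean-variance trend and robust variance (0.00745), and the low zinc siRNA difference passed under the same 3 settings (0.00932, 0.00929 and 0.0107). Over all features the interaction called 101 higher and 45 lower without background correction, against 1 and 2 in the main fit. SELENOK has 3 pseudogenes by symbol, GPX1 and SELENOT have 2 each and SELENOW has 1. Probe sequences were not used here, so cross-hybridization was not tested for any of these genes.

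SELENOT, an endoplasmic reticulum protein with a thioredoxin-like fold, showed no detectable difference. It measured between 7.82 and 8.08 on all 12 arrays, and all groups overlapped. Its zinc differences were 0.01 ± 0.09 (95% interval -0.19 to 0.21) with control siRNA and -0.02 ± 0.09 (-0.22 to 0.18) with MTF1 siRNA.

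The glutathione peroxidases GPX1 and GPX4 shared the order of their group means with SELENOW, but not with GPX2. The lowest mean was at high zinc with control siRNA and the highest at high zinc with MTF1 siRNA. GPX1, the cytosolic enzyme, measured 10.06, 10.02 and 9.98 at low zinc and 9.84, 9.89 and 9.61 at high zinc with control siRNA. The MTF1 siRNA arrays measured 9.97, 9.88 and 10.02 at low zinc and 10.05, 10.25 and 10.14 at high zinc. The zinc groups did not overlap under either siRNA, lower at high zinc with control siRNA and higher with MTF1 siRNA. The differences were -0.24 ± 0.10 (limma adjusted p = 0.124) and 0.20 ± 0.10 (adjusted p = 0.219), and the interaction was 0.43 ± 0.14 (adjusted p = 0.205).

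GPX4 reduces phospholipid hydroperoxides and protects cells from ferroptosis. With control siRNA it measured 12.33, 12.35 and 12.41 at low zinc and 12.27, 12.11 and 12.06 at high zinc. With MTF1 siRNA it measured 12.12, 12.18 and 12.36 at low zinc and 12.42, 12.51 and 12.41 at high zinc. Again the zinc groups did not overlap and ran in opposite directions, a pattern that SELENOK, GPX1 and GPX4 shared with 1.06% of all features. The differences were -0.22 ± 0.09 (limma adjusted p = 0.130) and 0.23 ± 0.09 (adjusted p = 0.133), with an interaction of 0.45 ± 0.13 (adjusted p = 0.187). The second GPX4 probe gave an interaction of 0.45 ± 0.19 (adjusted p = 0.287) with the same directions.

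GPX2, the gastrointestinal glutathione peroxidase, measured 11.58, 11.46 and 11.32 at low zinc and 11.83, 11.70 and 11.17 at high zinc with control siRNA. Under MTF1 siRNA the values were 11.52, 11.49 and 11.54 at low zinc and 11.82, 11.86 and 12.01 at high zinc, without overlap. The zinc differences were 0.11 ± 0.15 (limma adjusted p = 0.648) with control siRNA and 0.38 ± 0.15 (adjusted p = 0.112) with MTF1 siRNA. The third high zinc control array was the lowest of the 12, and without it, although it is not among the arrays compared, the latter passed (adjusted p = 0.0236). It also passed in 4 of the 11 alternative settings: without background correction (adjusted p = 0.0332), on the authors' deposited log2 values (0.0338), with only the groups compared (0.0362) and with the trended robust variance (0.0346).

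TXNRD2 is the mitochondrial thioredoxin reductase. With control siRNA it measured 8.06, 8.14 and 8.11 at low zinc and 8.47, 8.38 and 8.13 at high zinc. The MTF1 siRNA arrays measured 8.31, 8.37 and 8.53 at low zinc and 8.59, 8.55 and 8.65 at high zinc, above the control siRNA arrays of the same zinc level without overlap. The siRNA difference was 0.31 ± 0.10 (limma adjusted p = 0.234) at low zinc, 0.27 ± 0.10 (adjusted p = 0.182) at high zinc and 0.29 ± 0.07 (adjusted p = 0.0712) averaged over both. The averaged difference passed without the first high zinc control array (adjusted p = 0.0475) and in the 3 settings under which the SELENOK interaction passed (0.0282, 0.0299 and 0.0347).

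**Figure D2:**
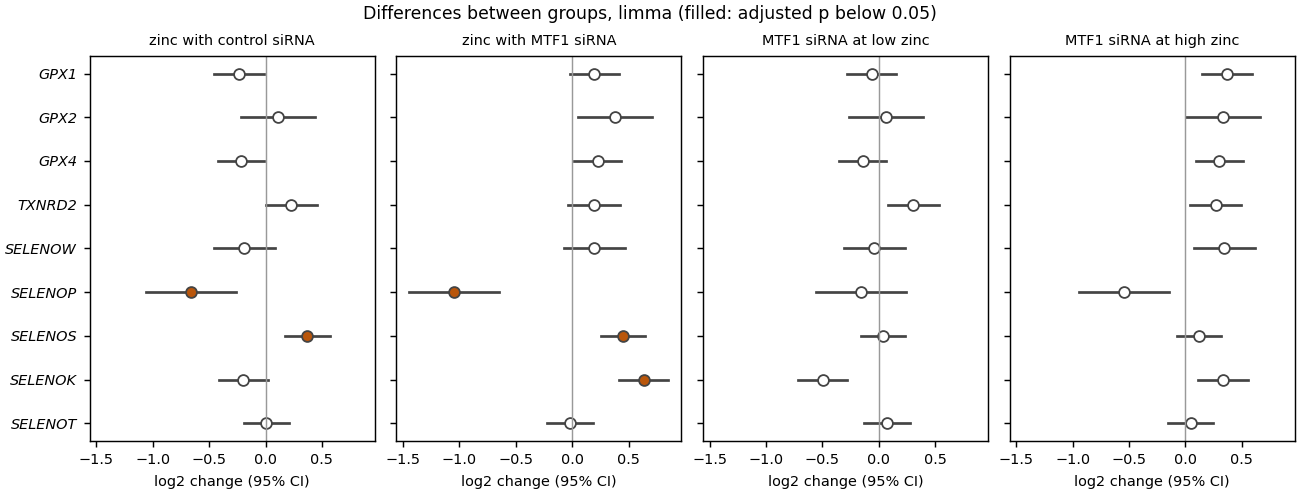
Log2 changes of 9 selenoprotein genes (points) with 95% confidence intervals (lines) from limma in 4 comparisons of 3 against 3 arrays; the horizontal axis is in log2 units and filled points passed the adjusted threshold of 0.05. Filled points appear in the 2 zinc comparisons only, for SELENOP and SELENOS in both and for SELENOK with MTF1 siRNA, while at high zinc 8 of 9 points for MTF1 siRNA lie to the right of 0.

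MTF1 siRNA called 0 of the 9 genes by limma at low zinc, where 0.119% of all features were called and 2 of the 9 had an unadjusted p below 0.05, against 14.7% of all features. There TXNRD2 was higher (11.6% of all features were) and SELENOK lower (8.83% were) on every MTF1 siRNA array than on any control array. At high zinc it again called 0 of 9, beside 1.9% of all features. In that comparison 8 of the 9 differences were above 0 (50.5% of all features), with a median of 0.30 (all features 0.00), and 7 of 9 had an unadjusted p below 0.05 (20.7% of all features). GPX1 (0.37 ± 0.10, adjusted p = 0.0819), GPX4 (0.30 ± 0.09, adjusted p = 0.110), SELENOK, SELENOW and TXNRD2 were higher on every MTF1 siRNA array than on any control array, as were 12.9% of all features, and SELENOP was lower, as were 13.4%. Under no background correction, on the authors' deposited values and with the trended robust variance, GPX1 (adjusted p = 0.0180, 0.0209 and 0.0223), GPX4 (0.0281, 0.0331 and 0.0393) and SELENOK (0.0267, 0.0307 and 0.0343) passed. These settings also called more of all features, with 451 higher and 526 lower without background correction, against 96 and 175 in the main fit. The third high zinc control array was the lowest of its group for GPX1, GPX2, GPX4, TXNRD2, SELENOW and SELENOS. Without it the differences were 0.28 for GPX1, 0.26 for GPX4, 0.32 for SELENOK, 0.17 for TXNRD2 and 0.13 for GPX2, with adjusted p between 0.216 and 0.577. The part of that array in the high zinc differences beyond these values was not tested.

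The interaction called 0 of 9 by limma, beside 0.021% of all features, and 4 of the 9 (SELENOK, GPX4, GPX1 and SELENOW) had an unadjusted p below 0.05, against 15.9% of all features. Averaged over both zinc levels, MTF1 siRNA called 0 of 9 (2.13% of all features), with 2 of 9 at an unadjusted p below 0.05 (19.1% of all features). Averaged over both siRNAs, zinc called 3 of 9, beside 27.1% of all features. These were SELENOP at -0.85 ± 0.13 (adjusted p = 5.05e-04), SELENOS at 0.41 ± 0.06 (adjusted p = 6.15e-04) and SELENOK at 0.22 ± 0.07 (adjusted p = 0.0393). The averaged SELENOK value joins the 2 differences of opposite sign given above, of which that with control siRNA did not pass. Its call was lost when any of 10 of the 12 arrays was left out, with adjusted p from 0.0512 to 0.0959. Without the third high zinc control array, GPX2 (adjusted p = 0.00662) and TXNRD2 (adjusted p = 0.0180) passed in this average, and TXNRD2 also passed without the third low zinc MTF1 siRNA array (adjusted p = 0.0428).

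Other selenoproteins were measured for 10 of 15 listed genes, of which zinc averaged over both siRNAs called 3, beside the 27.1% of all features. TXNRD1, the cytosolic thioredoxin reductase, rose by 0.78 ± 0.11 (adjusted p = 8.19e-04) with control siRNA and by 0.69 ± 0.11 (adjusted p = 0.00132) with MTF1 siRNA, and its second probe rose in both. The iodothyronine deiodinases moved apart in the average: DIO1 fell by 0.88 ± 0.20 (adjusted p = 0.00718) and DIO3 rose by 0.27 ± 0.09 (adjusted p = 0.0464). DIO3 differed by 0.36 with control siRNA and 0.18 with MTF1 siRNA, and neither passed (limma adjusted p = 0.0734 and 0.398). DIO1 passed with control siRNA (0.0473) and not with MTF1 siRNA (0.0637). A second DIO1 probe fell by 0.70 ± 0.12 in the average (adjusted p = 0.00106). The main DIO1 probe was detected on 3 of 3 arrays of each low zinc group and on 1 of 3 of each high zinc group. MTF1 siRNA called none of the 10 by limma at either zinc level, where 0.119% (low) and 1.9% (high) of all features were called. An unadjusted p below 0.05 was found for 2 of the 10 at low zinc (14.7% of all features) and for 0 at high zinc (20.7%).

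Of 13 listed genes for making and inserting selenocysteine, 11 were measured and zinc in the average called 3, or 27.3%, beside 27.1% of all features. SARS1, the seryl-tRNA synthetase that charges the selenocysteine tRNA with serine, rose by 0.42 ± 0.08 (adjusted p = 0.00175). SECISBP2, which binds the element that recodes UGA, fell by 0.37 ± 0.09 (adjusted p = 0.00962). TRNAU1AP, a tRNA-associated factor, was detected on no low zinc array, on 2 of 3 high zinc control arrays and on 3 of 3 high zinc MTF1 siRNA arrays, where it was at least 1.18-fold higher than at low zinc. With control siRNA the same bound was 0.96-fold, so no rise was established there. The averaged zinc difference of TRNAU1AP passed (limma adjusted p = 0.0237). It did not pass with control siRNA (0.182) or with MTF1 siRNA (0.0753) alone. SARS1 passed with control siRNA only (0.00556, against 0.0861 with MTF1 siRNA). SECISBP2 passed with MTF1 siRNA only (0.0347, against 0.123 with control siRNA).

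Of 7 listed genes of selenium uptake and binding, 5 were measured and zinc in the average called 3, beside 27.1% of all features. SLC7A11, the cystine importer, was detected on no low zinc array and on every high zinc array, and was at least 2.14-fold higher with control siRNA (adjusted p = 1.63e-05) and at least 2.42-fold higher with MTF1 siRNA (adjusted p = 6.30e-06). These bounds compare each group's mean with the higher of the probe's own signal and the lowest detected signal per array. Its partner SLC3A2 rose by 0.57 ± 0.09 and 0.79 ± 0.09 (adjusted p = 0.00108 and 7.60e-05). SELENBP1, which binds selenium without selenocysteine, measured -0.68 ± 0.27 with control siRNA (adjusted p = 0.0973) and fell by 0.94 ± 0.27 with MTF1 siRNA (adjusted p = 0.0328).

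Antioxidant enzymes without selenocysteine, most of them relatives that use cysteine, were measured for 17 of 20 genes. Zinc in the average raised 3 (12.6% of all features rose) and lowered 4 (14.5% fell). GSR, glutathione reductase, rose by 0.59 ± 0.11 (adjusted p = 0.00168) and the methionine sulfoxide reductase MSRA by 0.33 ± 0.10 (adjusted p = 0.0314). MSRB3 passed upward too (adjusted p = 2.58e-04); its probe was detected on every high zinc array, on 1 low zinc array with MTF1 siRNA and on none with control siRNA. Catalase (CAT) fell by 0.77 ± 0.10 (adjusted p = 1.29e-04), MSRB2 fell by 0.77 ± 0.10 (adjusted p = 1.70e-04), GPX7 fell by 0.46 ± 0.10 (adjusted p = 0.00618) and PRDX6 fell by 0.27 ± 0.06 (adjusted p = 0.00554). A second, dimmer CAT probe fell by 0.55 ± 0.17 in the same average (adjusted p = 0.0364 over all entering probes), while its values of -0.33 ± 0.24 with control siRNA and -0.76 ± 0.24 with MTF1 siRNA did not pass. GPX7 and PRDX6 passed with MTF1 siRNA (limma adjusted p = 0.0390 and 0.00511) and not with control siRNA (0.0612 and 0.348). MSRA passed with control siRNA (0.0422) and not with MTF1 siRNA (0.421). MTF1 siRNA at high zinc called 1 of the 17 by limma, beside 1.9% of all features. SOD2, the mitochondrial superoxide dismutase, rose by 0.41 ± 0.09 (adjusted p = 0.0483), and its second probe by 0.69 ± 0.15 (adjusted p = 0.0364). Over all features this comparison called 271 with all arrays and 21 to 245 when 1 array was left out.

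Partners of SELENOS and SELENOK in the degradation of endoplasmic reticulum proteins were measured for 9 of 13 genes, and zinc in the average called 2, or 22.2%, beside 27.1% of all features. Both were higher, as were 12.6% of all features. SYVN1, the HRD1 ubiquitin ligase, rose by 0.40 ± 0.08 (adjusted p = 0.00297) and UBXN8, which tethers VCP, by 0.45 ± 0.11 (adjusted p = 0.00789). The main UBXN8 probe passed with MTF1 siRNA (limma adjusted p = 0.0337) and not with control siRNA (0.0975). A second, dimmer UBXN8 probe did not pass with either siRNA or in the average (0.21 ± 0.16, adjusted p = 0.380). VCP and ZDHHC6 were measured and did not pass.

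Genes of glutathione supply, iron and lipid handling around GPX4 were measured for 13 of 15, and zinc in the average called 8, beside 27.1% of all features. Of these 6 rose (12.6% of all features did) and 2 fell (14.5% did). Zinc called 7 of the 13 with control siRNA (18% of all features) and 5 with MTF1 siRNA (15.7%). HMOX1, heme oxygenase 1, rose by 1.09 ± 0.11 (adjusted p = 7.26e-05) and 1.32 ± 0.11 (adjusted p = 9.52e-06) with control and MTF1 siRNA. GCLM, the modifier subunit of the enzyme that starts glutathione synthesis, rose by 0.76 ± 0.10 (adjusted p = 5.44e-04) and 0.95 ± 0.10 (adjusted p = 7.01e-05). Its second probe gave 0.05 ± 0.17 with control siRNA, which did not pass, and rose by 0.96 ± 0.17 with MTF1 siRNA and by 0.51 ± 0.12 in the average (adjusted p = 0.00873). The catalytic subunit GCLC rose by 0.62 ± 0.15 (adjusted p = 0.0151) with control siRNA and measured 0.08 ± 0.15 with MTF1 siRNA, and the interaction did not pass (adjusted p = 0.265). TFRC, the transferrin receptor, ACSL4, which activates polyunsaturated fatty acids, and SLC7A11 also rose in the average. LPCAT3, which esterifies such fatty acids into phospholipids, fell by 0.31 ± 0.06 (adjusted p = 0.00430). It passed with MTF1 siRNA (limma adjusted p = 0.0107) and not with control siRNA (0.127), while TFRC passed with control siRNA (6.74e-04) and not with MTF1 siRNA (0.0553). DHODH passed downward in the average (adjusted p = 0.0188) but was detected on no MTF1 siRNA array.

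**Figure D3:**
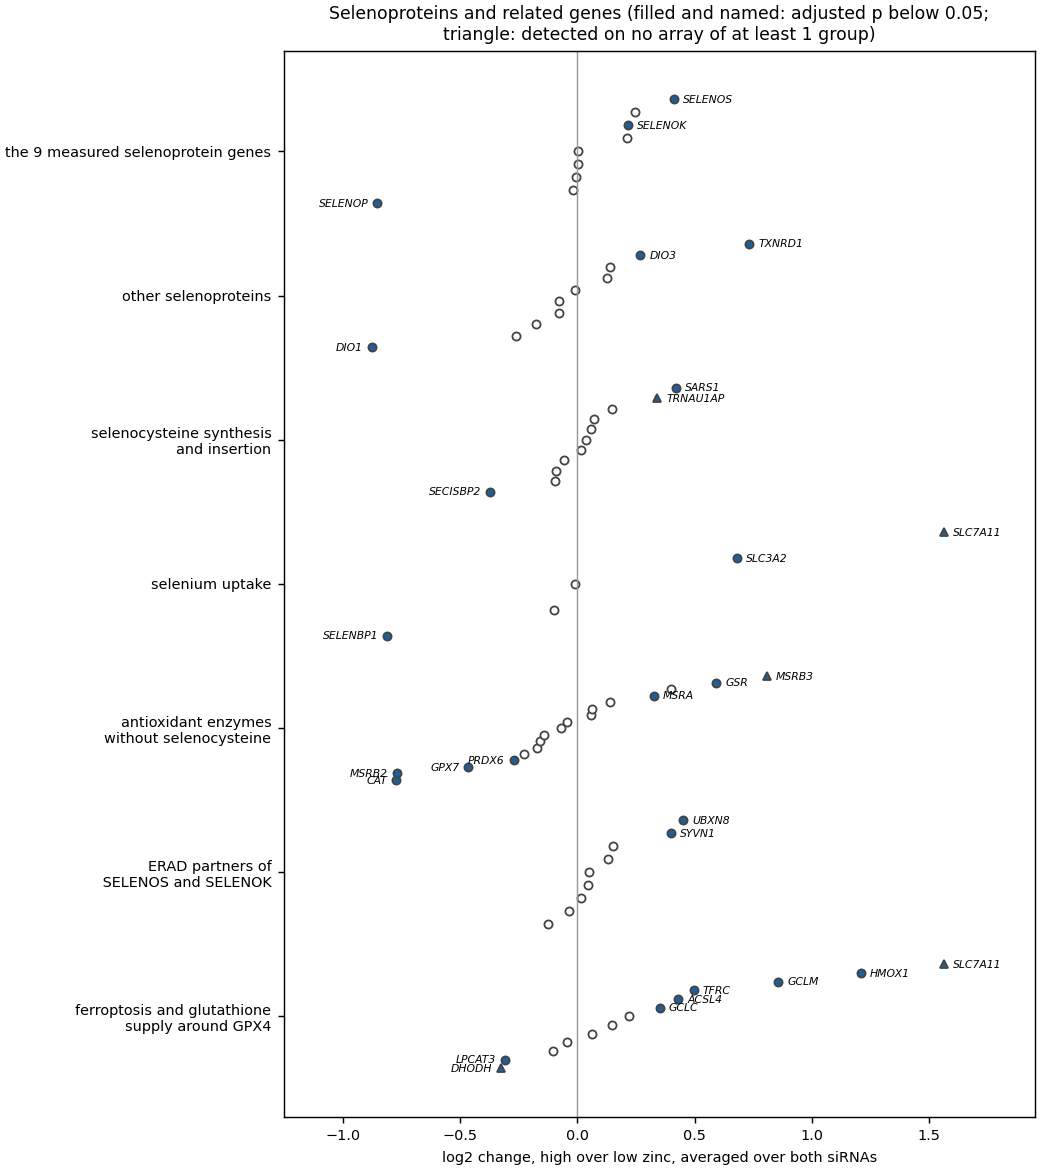
Log2 change with zinc, averaged over both siRNAs (horizontal axis), for each measured gene of the selenoprotein set and of 6 lists of related genes. Filled, named points passed the adjusted threshold of 0.05 in limma over 12 arrays; triangles (SLC7A11, MSRB3, TRNAU1AP, DHODH) mark probes detected on no array of at least 1 group, whose position is a fitted value and not a measured size.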

How the data were processed

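Per the labels' protocols, total RNA was extracted with Trizol, and 200 ng was amplified and biotin-labelled with an Illumina TotalPrep-96 kit. Per the file headers, the authors deposited non-normalized probe intensities with a detection p-value beside each. No source read for this work names the scanner software. A second deposited table holds processed log2 values, whose normalization is not stated. Each array's median there was 7.03 and its ranks equalled those of the intensities. For zinc with control siRNA these values called 1499 features higher and 1617 lower, and the setting without background correction called 1506 and 1635. A result that passed in both settings is therefore not 2 independent results.

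Intensities were background-corrected and quantile-normalized with neqc (limma 3.58.1, R 4.3.3, offset 16). Of 47323 probes 17413 entered (rule in the results), and each gene was represented by its brightest probe on average, giving 14285 features. Symbols came from the platform table, updated through gene identifiers. limma fitted 4 group means to all 12 arrays. Benjamini-Hochberg adjustment ran over all features of each of 7 comparisons, with a threshold of 0.05. Errors are SE, and n is 3 arrays per group, which limits the precision. The fit was tested on simulated data.

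The named genes are the 10 selenoprotein genes, MTF1, MT2A and SLC30A1, the listed genes past the threshold, and the 3 genes most correlated with SELENOW. The members and lists were chosen with earlier results of these data known. Alternatives tried were other background, normalization, filter, probe and variance settings, a replicate block, and leaving out each array. Replicate numbers showed no pairing common to all groups. Of 18 same-number pairs of arrays 1 had deviations correlated above 0.1 (range -0.10 to 0.14). Between the 2 control siRNA groups the same-number pairs (0.0436 to 0.144) lay above all other pairs (-0.112 to 0.0246). Between the 2 MTF1 siRNA groups they (-0.0960 to -0.0336) lay below all other pairs (0.0149 to 0.0805).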

Additional observations from a re-analysis of the deposited data

Results flagged for a closer look

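Under MTF1 siRNA every high zinc array lay above every low zinc array, and under control siRNA every high zinc array lay below every low zinc array, for 3 of the 9 measured selenoprotein genes. The zinc response with MTF1 siRNA minus that with control siRNA was 0.83 for SELENOK, 0.43 for GPX1 and 0.45 for GPX4 (log2). Of all 14285 features 152 (1.06%) showed responses without overlap in opposite directions, and 66 (0.462%) did so in the direction of these 3 genes. The difference itself was tested by limma's interaction term and did not pass for SELENOK (adjusted p = 0.106), GPX1 (adjusted p = 0.205) or GPX4 (adjusted p = 0.187). The 2 zinc responses come from separate sets of 6 arrays.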

How the results depend on the processing

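Beside leaving out arrays, 11 alternative settings were run, 1 of which had no value for the interaction and the averages because it used only the groups compared. No value of a called gene changed sign. Zinc with control siRNA called 2 of 9 selenoprotein genes, but 1 with arrays centred on the median, 1 with only the groups compared and 0 without the filter on dim probes, where 37256 features were tested. Leaving out 1 array gave 0 to 2. No background correction, the authors' log2 values and a mean-variance trend with robust variance gave 1 of 9 in place of 0 for MTF1 siRNA at low zinc, 3 in place of 0 at high zinc, 1 in place of 0 for the interaction, 1 in place of 0 for MTF1 siRNA averaged, 5 in place of 3 for zinc averaged (adding GPX2 and TXNRD2) and 4 in place of 3 for zinc with MTF1 siRNA (adding GPX2). The last count was also 4 with only the groups compared. Calls over all features rose in the 3 settings too. Without background correction MTF1 siRNA called 56 features higher and 103 lower at low zinc, against 5 and 12 in the main fit. At high zinc it called 451 and 526, against 96 and 175, and the interaction called 101 and 45, against 1 and 2. Averaged over both zinc levels, MTF1 siRNA called 260 and 453, against 86 and 218. Zinc called 2014 and 2261 in the average, against 1796 and 2071, and 1209 and 1456 with MTF1 siRNA, against 1028 and 1216. Leaving out 1 array gave 3 to 4 for zinc with MTF1 siRNA (main count 3), 0 throughout for MTF1 siRNA at each zinc level and for the interaction, 2 to 4 for zinc averaged and 0 to 1 for MTF1 siRNA averaged.

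With the replicate block the averaged zinc call of SELENOK was lost (adjusted p = 0.0650), as was the MTF1 call at high zinc (adjusted p = 0.0825), and no other call of a named selenoprotein gene changed. For 5 of 12 arrays the mean correlation of deviations with arrays of other groups was highest for their own number. Without the filter on dim probes the averaged zinc call of SELENOK was also lost (limma adjusted p = 0.117). Both MTF1 calls were lost there too, at high zinc (0.129) and averaged over both zinc levels (0.0514). With only the groups compared, the MTF1 call at high zinc was lost as well (0.0984). The calls of SELENOP, SELENOS and SELENOK with zinc under MTF1 siRNA held in all 11 settings and with each array left out, with adjusted p at most 0.0115, 0.0259 and 0.0122.

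Counts over all features ranged, over all alternatives, from 1540 to 3141 for zinc with control siRNA (2573 as reported), 1506 to 2792 with MTF1 siRNA (2244), 0 to 159 for MTF1 siRNA at low zinc (17), 21 to 977 at high zinc (271), 1 to 146 for the interaction (3) and 86 to 713 for MTF1 siRNA averaged (304). For zinc averaged over both siRNAs the range was 2744 to 4551 (3867). Centring on the median moved the split of higher against lower calls from 1232 and 1341 to 1259 and 1017 for zinc with control siRNA, from 1028 and 1216 to 1040 and 978 with MTF1 siRNA, and from 86 and 218 to 105 and 105 for MTF1 siRNA averaged. Why counts moved was not tested. The SELENOH probe and the second probes that were not detected have signals too low to give a level.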
